A study of Mus musculus with 13 samples.

Results

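Total RNA of YUMM1.7 cells, a mouse cutaneous melanoma line whose genotype the labels give as WT, was sequenced after depletion of ribosomal RNA. A culture treated with ADAR1i-124 (10 µM, 12 h), an inhibitor of the RNA editing enzyme ADAR1, was compared with a culture treated with the solvent DMSO. Each treatment had 1 library, so no difference below has a replicate check and no test was run. The description covers the 13693 of 54532 counted genes whose mean over both libraries was at least 1 CPM (counts of a gene per 1000000 counts of the library). The library totals were 17015425 counts with DMSO and 17617961 with ADAR1i-124. Changes are log2 ratios of CPM, ADAR1i-124 over DMSO, after 0.5 CPM was added to both, which understates the change of low genes. A gene is said to have risen or fallen where its ratio was at least 2-fold, a line that stands in for a test. Of the 13 libraries of the series, RNA precipitated with the antibodies J2 and Z22, which bind double-stranded RNA and Z-form RNA, gave a further DMSO and ADAR1i-124 pair each, with which directions were compared. Total RNA of cells treated with 5-Aza-CdR (1 µM, 72 h) is given beside single genes only.

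ADAR1 converts adenosine to inosine in double-stranded RNA. Unedited duplexes made by the cell itself can be bound by the sensor MDA5, whose signal through MAVS leads to type I interferon, and interferon acts through its receptor, JAK kinases and STAT and IRF factors to switch on interferon-stimulated genes. The larger form of ADAR1 is itself interferon-stimulated, and it also opposes ZBP1, a sensor of Z-form RNA.

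The libraries were first checked against their labels. The pigmentation genes that define melanocytes were at or near 0, with 0 counts in both libraries for Mlana, Tyr, Tyrp1 and Dct, 1 and 0 counts for the lineage factor Sox10, and 2 and 4 for Pmel. Mitf, the master regulator of the lineage, was measured at 22.2 CPM with DMSO and 20.3 with ADAR1i-124, and Pax3, which acts upstream of it, at 80.6 and 69.9. The receptor kinase Axl, a mark of dedifferentiated melanoma, stood at 1039 and 1073 CPM, and the intermediate filament Vim at 1998 and 2957. Of 20 leukocyte markers only Cd68 and Cd14 reached 1 CPM, of 10 endothelial markers only Cdh5, and of 10 keratinocyte markers only Itga6 and Krt10. Cd68 (8.29 and 19.5 CPM) and Cdh5 (3.70 and 17.8 CPM) were higher with ADAR1i-124 in total RNA. In the J2 pair they were lower, at 59.6 and 6.46 CPM for Cd68 and at 8.21 and 3.13 for Cdh5, and relative to the median gene they were lower in the Z22 pair too (-1.06 and -1.61). Cd14 was within 2-fold in all 3 pairs. The part of these marker levels in other differences was not tested. In bulk RNA fewer cells of a type and less RNA per cell cannot be told apart.

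Genes of the Y chromosome did not follow the treatment across the series. Their summed level was 8.6 CPM in total RNA with DMSO and 130.6 with ADAR1i-124, but 69.8 with DMSO and 8.6 with ADAR1i-124 in the J2 libraries, and 89.4 and 24.6 in the Z22 libraries. It was 115.1 CPM in total RNA after 5-Aza-CdR. Of 6 Y-linked genes above 1 CPM in total RNA, 5 rose, among them the helicase gene Ddx3y (57 and 861 counts), the demethylase gene Kdm5d (29 and 432 counts) and its relative Uty (24 and 568 counts). In the study's methods the precipitated RNA was a fraction of the total RNA extracted from treated cells, and these values do not show whether the cells behind the total and precipitated libraries were the same. From these counts an exchange of libraries or labels within a pair cannot be told apart from a difference between cultures. Every direction below rests on the labels, and would turn for a pair whose labels were exchanged. A second difference between the libraries lay in base composition, given with the gene classes, and both are set beside the results they move with.

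At least 4-fold higher with ADAR1i-124 were 257 of 13693 genes (1.88%) and at least 4-fold lower were 281 (2.05%). At least 2-fold higher were 1056 (7.71%) and at least 2-fold lower 1191 (8.7%), and these shares are the background for every list in total RNA. Relative to the median gene of the pair, 7.31% of 13032 genes were at least 2-fold higher and 10.3% lower in the J2 pair, and 17.1% of 12453 higher and 17% lower in the Z22 pair, which are the background for counts in the precipitated pairs. The median gene changed by -0.09 on the log2 scale. The lists of interferon-stimulated effectors and RNA sensors held no rise, and those of immediate early factors and NRF2 targets no fall.

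**Figure D1:**
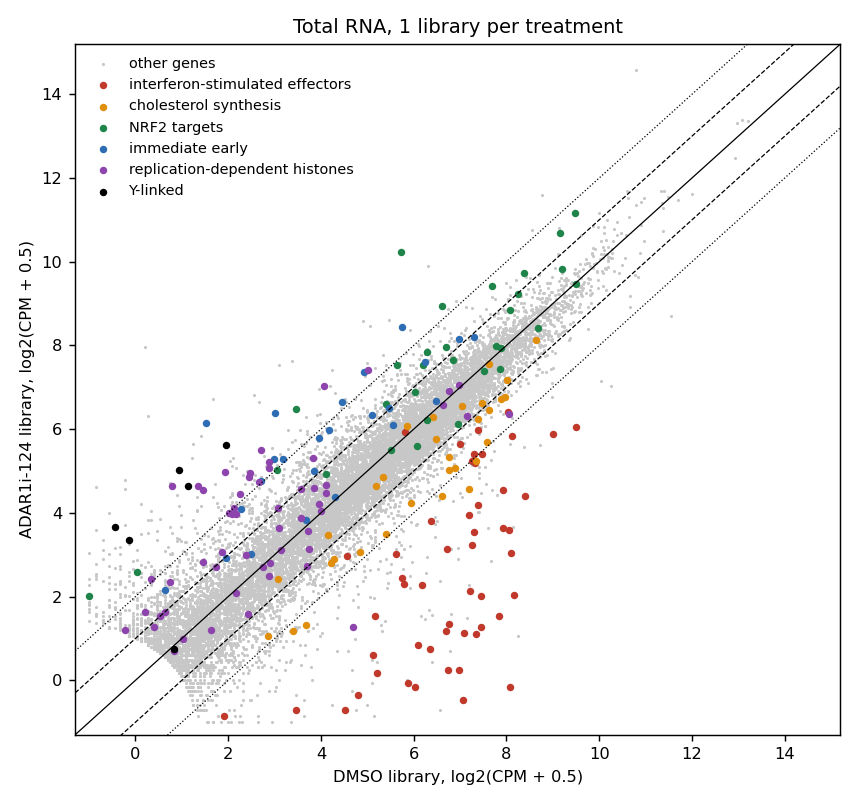
Level of each of 13693 genes in the DMSO library (x axis) and the ADAR1i-124 library (y axis) of total RNA, both as log2(CPM + 0.5). The solid line marks equal levels, the dashed lines 2-fold and the dotted lines 4-fold, and colored points are members of 6 gene lists. Of the 51 interferon-stimulated effectors 50 lie below the lower 2-fold line, with a median log2 change of -4.0, and the 5 Y-linked genes that rose lie above them.

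The genes with the largest falls included several whose promoters hold the interferon-stimulated response element (ISRE), a site of STAT and IRF factors, searched here as GAAANNGAA on both strands. Promoters of 8 of the 12 largest falls were examined singly, and those of Iigp1, Oas2, Usp18 and Rtp4 were not. The 300-base promoters of the 5 that hold the element are shown so that the matches can be read in place (RefSeq, build GRCm38.p6, 250 bases before the start of the transcript and 50 after it, 5′ to 3′ on the strand of the gene, matches in capitals). They are Isg15 at chr4:156200769-156201068 (minus strand), Ifit3 at chr19:34583279-34583578 (plus), Oas3 at chr5:120777610-120777909 (minus), Igtp at chr11:58199306-58199605 (plus) and Ifi44 at chr3:151749861-151750160 (minus).
Isg15: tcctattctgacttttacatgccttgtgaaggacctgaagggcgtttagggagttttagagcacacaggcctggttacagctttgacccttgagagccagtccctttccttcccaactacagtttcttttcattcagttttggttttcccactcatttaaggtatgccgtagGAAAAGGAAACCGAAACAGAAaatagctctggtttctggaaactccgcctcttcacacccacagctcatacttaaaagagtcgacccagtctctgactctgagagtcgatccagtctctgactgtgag
Ifit3: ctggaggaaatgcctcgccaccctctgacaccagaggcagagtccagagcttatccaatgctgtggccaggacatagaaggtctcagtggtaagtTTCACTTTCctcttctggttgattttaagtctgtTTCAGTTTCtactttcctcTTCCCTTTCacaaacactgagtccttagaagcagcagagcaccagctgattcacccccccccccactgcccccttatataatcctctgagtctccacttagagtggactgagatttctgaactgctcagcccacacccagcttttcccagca
Oas3: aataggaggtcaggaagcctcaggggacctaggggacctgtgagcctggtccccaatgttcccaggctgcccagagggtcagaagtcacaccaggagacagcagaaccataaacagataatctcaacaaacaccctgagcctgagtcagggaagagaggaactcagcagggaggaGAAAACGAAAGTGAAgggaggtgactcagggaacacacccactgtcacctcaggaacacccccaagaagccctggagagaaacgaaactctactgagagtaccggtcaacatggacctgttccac
Igtp: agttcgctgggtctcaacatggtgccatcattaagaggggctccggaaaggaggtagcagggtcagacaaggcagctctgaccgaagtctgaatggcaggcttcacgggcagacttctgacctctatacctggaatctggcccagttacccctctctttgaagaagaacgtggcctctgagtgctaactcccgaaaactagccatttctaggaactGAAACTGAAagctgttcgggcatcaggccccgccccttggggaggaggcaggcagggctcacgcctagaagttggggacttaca
Ifi44: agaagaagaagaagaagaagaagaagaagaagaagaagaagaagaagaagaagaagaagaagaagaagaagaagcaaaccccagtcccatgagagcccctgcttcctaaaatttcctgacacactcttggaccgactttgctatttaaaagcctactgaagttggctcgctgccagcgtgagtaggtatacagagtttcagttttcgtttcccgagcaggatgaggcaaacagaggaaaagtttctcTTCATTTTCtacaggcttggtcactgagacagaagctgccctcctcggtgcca

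Isg15 and Ifit3 held 3 matches each, which overlapped in Isg15 and stood apart in Ifit3, Oas3 held 2 overlapping ones, and Igtp and Ifi44 held 1. The promoters listed for Oasl2, Cmpk2 and Phf11d held none in this window. Among 9184 genes above 1 CPM with a listed promoter, 8.56% held the ISRE, as did 9.76% of the promoters of all 27025 listed genes. The share was 17.8% of the 703 genes that fell, 39.1% of the 169 that fell at least 4-fold and 7.17% of the 711 that rose. In 115 genes at least 4-fold lower that belong to none of the 4 interferon lists below, it was 31.3%. The lists do not hold every interferon-stimulated gene, so this share does not describe genes outside the interferon response. The gamma-activated site TTCNNNGAA, bound by STAT dimers, was found in 15.4% of the genes at least 4-fold lower against 8.22% of all genes above 1 CPM, and in 11.3% with the interferon lists left out. Other motifs of the 18 searched were also more frequent in the genes at least 4-fold lower, such as the TATA box (21.3% against 8.66%), AP-1 (15.4% against 6.40%) and the amino acid response element (9.47% against 2.66%), while the GC box was less frequent (36.1% against 69.8%). Their promoters had a median GC content of 52% against 61%. A match describes the letters of the promoter and was not tested as a site.

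Interferon-stimulated effector genes fell almost as a group. Of 51 measured members, 50 fell and none rose, against 8.7% of all genes lower, with a median log2 change of -4.0. In the J2 pair 44 of 50 were at least 2-fold lower relative to the median gene and in the Z22 pair 34 of 51, and none was 2-fold higher in either. Ifi44, which encodes an antiproliferative protein, went from 4564 counts with DMSO to 7 with ADAR1i-124 (-8.23). Isg15, the ubiquitin-like modifier, went from 4886 to 63 counts (-6.14). Usp18, the protease that removes ISG15 and damps the receptor, went from 2141 to 12, and Ifit3, which binds other IFIT proteins on foreign RNA ends, from 3863 to 42.

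The counting error of these values was small beside the changes. The ratio of DMSO to ADAR1i-124 was 80.3 for Isg15 (95% exact interval 62.7 to 105), 185 for Usp18 (106 to 358) and 675 for Ifi44 (327 to 1680). Intervals and floors cover counting error only, since no molecular identifiers are described for these reads. The GTPase gene Iigp1 held 2252 and 4 counts and Igtp, also of the immunity-related GTPases, 1104 and 7. Cmpk2, a mitochondrial nucleotide kinase (1811 and 12), Rtp4, a receptor transporter (2741 and 29), and Phf11d (2949 and 34) complete the 12 largest falls with the OAS genes below. Rtp4 and Igtp share exonic bases on their strand with another annotated gene and Usp18 shares some with a gene on the other strand, and the counting did not state how such reads were assigned. The single effector that did not move was Ifitm2, at 55.7 and 60.2 CPM, and 5 of 56 listed effectors did not reach 1 CPM.

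Of 21 measured RNA sensors and adaptors, 15 fell and none rose. Oas2, one of the synthetases whose product activates RNase L, held 1611 counts with DMSO and 2 with ADAR1i-124, a ratio of 834 with a counting interval of 231 to 6893. Oasl2 held 5156 and 28 counts, Oas3 1875 and 20, and Oas1g 579 and 8. Dhx58, which encodes the regulator LGP2, fell from 75.2 to 2.27 CPM. The genes within 2-fold were the adaptors and kinases Mavs (67.9 and 57.6 CPM), Ticam1 (28.1 and 45.4), Tbk1 (89.6 and 85.9) and Ikbke (43.7 and 33.5), the factor Irf3 (25.4 and 37.8) and the DNA sensor Cgas (21.1 and 30.8).

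Adar, the gene of the targeted enzyme, fell from 3969 to 1037 counts (233 and 58.9 CPM, -1.98), so its transcript was lower in the library of the inhibitor. Adarb1, which encodes the related editing enzyme ADAR2, was measured at 8.64 and 8.68 CPM. Eif2ak2, the gene of the kinase PKR, which binds double-stranded RNA and is interferon-stimulated, fell from 268 to 49.6 CPM. Of 20 measured double-stranded RNA binding proteins Adar and Eif2ak2 alone fell, and none rose. Zbp1 fell from 427 to 12 counts.

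Of 21 measured genes of interferon signalling 6 fell and 15 stayed within 2-fold. The transcription factors Stat2 (3310 to 211 counts), Irf9 (87.5 to 10.2 CPM) and Irf7 (83.6 to 0.851) fell, as did Usp18. The type I receptor chains were measured at 73.5 and 82.9 CPM for Ifnar1 and at 16.5 and 18.6 for Ifnar2, and the kinase Jak1 at 330 and 289. None of the 20 type I and III interferon genes reached 1 CPM, and their summed level was 0.4 CPM with DMSO and 0.2 with ADAR1i-124, near the floor of 3 counts (0.176 and 0.170 CPM) below which a gene was not taken as detected.

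MHC class I presentation, which shows peptides to T cells, was lower in part. Of 20 measured genes 14 fell and none rose (median -1.52). The nonclassical class I gene H2-T23 fell from 61.8 to 6.58 CPM, the peptide transporter gene Tap1 from 34.6 to 3.41 and the immunoproteasome gene Psmb8 from 9.05 to 0.851. B2m, the shared light chain, was at 853 and 1009 CPM, and H2-D1, a classical heavy chain, at 271 and 211. Class I heavy chain genes are near-identical in sequence, and the division of their reads is uncertain. Of the chemokines and cytokines, Cxcl10 (188 to 25.4 CPM) and Ccl5 (37.3 to 8.51), which attract T cells, Il15 (12.2 to 1.31) and Il18 (6.17 to 0.738) fell. Csf2, a growth factor of myeloid cells, went from 2 counts, below the floor of 3, to 39 (ratio 18.8, counting interval 4.88 to 161). In all 6 of 16 measured genes fell and 4 rose. Of 14 in the J2 pair 9 were 2-fold lower and none higher, and of 12 in the Z22 pair 3 were lower and 2 higher. Among immune checkpoint genes Lgals9 (178 to 42.2 CPM), Cd274, which encodes PD-L1 (14.0 to 4.60), and Cd47 (436 to 165) fell, and the poliovirus receptor gene Pvr rose from 173 to 415.

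**Figure D2:**
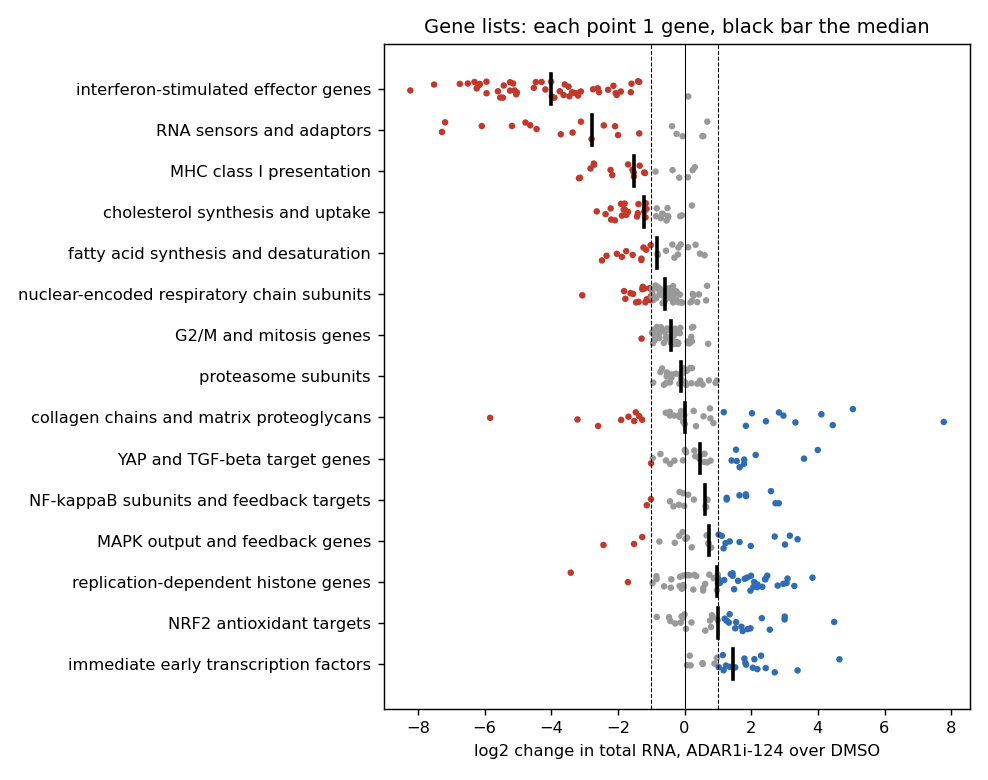
Log2 change of each measured gene in total RNA, ADAR1i-124 over DMSO (x axis), for 15 gene lists (y axis). Points are genes, black bars list medians, and dashed lines mark 2-fold. The medians run from -4.0 for interferon-stimulated effectors to 1.44 for immediate early factors, while all 33 proteasome subunits lie within 2-fold.

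Lipid synthesis genes gave falls and no rise in total RNA. Of 31 measured genes of cholesterol synthesis and uptake 19 fell and none rose, with a median of -1.20. Acat2, which condenses acetyl-CoA at the start of the pathway, fell from 147 to 23.2 CPM, Fdps, the farnesyl diphosphate synthase, from 12.3 to 1.99, Lss, which closes the sterol rings, from 161 to 37.5, and Nsdhl, a later sterol dehydrogenase, from 96.7 to 20.6. Of 23 genes of fatty acid synthesis 11 fell and none rose (median -0.81), among them the acetyl-CoA synthetase Acss2 (48.4 to 8.29 CPM), the phosphatidate phosphatase Lpin1 (66.7 to 12.8) and the desaturases Scd1 (503 to 136), Scd2 (1625 to 483) and Scd4 (42 and 4 counts). The precipitated pairs did not show the same counts. Of the 31 cholesterol genes 7 were 2-fold lower and none higher with J2 (median -0.56), and 4 were lower and 10 higher with Z22 (median 0.14). Of 22 fatty acid genes 2 were lower and none higher with J2, and 3 were lower and 3 higher with Z22. Among 22 cholesterol genes with a listed promoter, 86.4% held the NF-Y box CCAAT, against 43.5% of all genes above 1 CPM, and 1 held the sterol response element TCACNCCAC.

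Nuclear-encoded subunits of the respiratory chain gave 16 falls and no rise among 75 in total RNA (median -0.60). With J2 2 were higher and none lower (median 0.23), a smaller share than among all genes, and with Z22 25 were higher and 4 lower (median 0.62). The largest fall was that of Atp5k, a small subunit of ATP synthase, from 32.7 to 3.46 CPM, followed by Cox5b (83.5 to 23.4), Atp5e (26.3 to 7.32) and the complex I genes Ndufa2 (32.9 to 10.3) and Ndufa4 (84.9 to 28.8). The 13 mitochondrially encoded transcripts had a median of 0.30, with mt-Nd3 (63.5 to 20.4 CPM) and mt-Atp8 (29.0 to 8.06) lower and none higher. Ribosomal protein genes gave 9 falls and 4 rises among 88 (median -0.33), from Rpl22l1 (67.9 to 22.6 CPM) and Rps14 (512 to 175) to Rpl36 (22.6 to 105) and Rplp2 (56.4 to 227), and processed pseudogenes of these families can share their reads.

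The signal recognition particle RNA Rn7s1 fell from 111 to 8.23 CPM and Rn7s2 from 86.0 to 21.3. The Cajal body RNAs Scarna13 (31.5 to 6.92 CPM), Scarna2 (8.87 to 2.21) and Scarna9 (2.64 to 0.454) also fell, so that 5 of 12 small structured RNAs fell. The 1 that rose was Rn7sk, the RNA that holds the elongation kinase P-TEFb inactive, from 1556 to 3327 CPM, and with it the summed level of the list went from 1867.2 to 3422.9 CPM. Of 11 of these RNAs measured in the J2 pair 1 was 2-fold lower and none higher. Of 11 in the Z22 pair 2 were lower and 6 higher (median 1.02). By annotated class, 52.4% of 21 genes of the class misc_RNA and 33.3% of 30 small nuclear RNAs were lower in total RNA.

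Of the 12 largest rises, 8 are described first. Bgn, the proteoglycan biglycan, was counted 11 times with DMSO and 4421 times with ADAR1i-124 (7.78), a ratio of 388 with a counting interval of 217 to 778. Cspg4, the melanoma-associated proteoglycan NG2, had 1 and 421 counts, a ratio of 407 that the single count leaves between 72.6 and 16098. The basement membrane collagens Col4a1 (137 and 3277 counts) and Col4a2 (46 and 1861 counts) rose together. Crabp1, a retinoic acid binding protein (6 and 408 counts), Grb10, an adaptor that restrains growth factor receptors (32 and 871), Map1a, a microtubule protein (37 and 1001), and Marcksl1, an actin-binding substrate of protein kinase C (6 and 479), complete these 8. Over all 36 measured collagens and matrix proteoglycans 11 rose and 9 fell, with a median of 0.00. Of 34 measured in the precipitated pairs, 20 were lower and 1 higher with J2 (median -1.52), and 24 lower and 3 higher with Z22 (median -1.46). Ogn, the proteoglycan osteoglycin, was the largest fall, from 971 to 9 counts, and the collagenase Mmp13 rose from 31 to 695.

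The starts of Col4a2 and Col4a1 lie 21 bases apart on opposite strands, so that their promoter windows share 78 bases. They are shown because both genes rose from one region (RefSeq, GRCm38.p6, Col4a2 at chr8:11312555-11312854 on the plus strand, Col4a1 at chr8:11312777-11313076 on the minus strand, each 5′ to 3′). Capitals mark the box CCAAT and the GC box GGGCGG on either strand.
Col4a2: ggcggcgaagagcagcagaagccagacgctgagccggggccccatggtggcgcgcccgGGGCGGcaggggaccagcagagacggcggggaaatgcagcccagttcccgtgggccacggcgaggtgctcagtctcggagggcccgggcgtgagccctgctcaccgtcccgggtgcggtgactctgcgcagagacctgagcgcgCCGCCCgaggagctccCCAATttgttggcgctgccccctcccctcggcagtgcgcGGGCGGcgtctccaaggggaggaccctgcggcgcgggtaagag
Col4a1: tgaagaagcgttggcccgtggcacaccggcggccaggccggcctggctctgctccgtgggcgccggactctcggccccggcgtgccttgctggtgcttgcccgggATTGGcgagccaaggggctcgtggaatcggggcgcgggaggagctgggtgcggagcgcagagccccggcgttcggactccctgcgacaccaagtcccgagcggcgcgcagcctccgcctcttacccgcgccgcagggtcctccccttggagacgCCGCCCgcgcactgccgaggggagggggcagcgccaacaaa

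The GC box was present 3 times in the Col4a2 window and 1 time in that of Col4a1, and the CCAAT box 1 time in each. The GC box of the Col4a1 window lies in the shared bases and is the same site as 1 of those counted for Col4a2. In 69.8% of the genes above 1 CPM with a promoter the GC box was found, and in 69.8% of those that rose. The 2 genes also overlap in annotated exons on opposite strands.

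These 8 of the 12 largest rises, grouped after their values were seen, were 2-fold or more lower relative to the median gene with J2. The other 4 were Lce1g and Hmox1, which lay above that median, and Junb and Prl2c2, which lay below it by less than 2-fold. Bgn went from 71.1 to 8.96 CPM in the J2 pair, Crabp1 from 145 to 2.71, Col4a1 from 106 to 10.5, Col4a2 from 54.0 to 6.25, Grb10 from 34.1 to 2.43 and Map1a from 21.8 to 3.68. Their high and low libraries were thus the same as those of the Y-linked genes in both pairs. In total RNA after 5-Aza-CdR, Bgn stood at 227 CPM and Col4a1 at 142, above the DMSO library as well. Whether the treatment or another difference between the cultures separates these libraries cannot be told apart from 1 library each.

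Immediate early transcription factors are induced by growth signals and stress within minutes. Of 24 measured members 17 rose, 7 stayed within 2-fold and none fell (median 1.44), against 7.71% of all genes higher. Junb rose from 40 to 1250 counts (4.65, ratio 30.2, interval 22 to 42.5). Egr1 rose from 7.52 to 83.7 CPM, Fosl1 from 53.1 to 349, Jun from 30.1 to 165 and Fosb from 7.46 to 38.6. Their median transcript GC content was 54.5%, and with the median change of genes of like GC content subtracted 16 of 24 still rose.

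These factors did not rise in the precipitated pairs. Relative to the median gene of the pair, none of the 24 was 2-fold higher and 2 were 2-fold lower with J2, a share near that of all genes, and none was higher and 12 were lower with Z22, where Egr1 went from 218 to 46.6 CPM. The counts of lists in the precipitated pairs were not corrected for GC content. Change ran with GC content most strongly in the Z22 pair (Spearman's coefficient -0.43). Genes of MAPK output gave 11 rises and 3 falls among 25, with Egr1 and Fosl1, which the immediate early list also holds, the phosphatase Dusp5 (15 to 125 CPM) and the urokinase receptor Plaur (739 to 6909 counts) among the rises, whereas the ETS factor Etv1 fell from 184 to 33.7 CPM. Of the 25, 1 was 2-fold higher and none lower with J2, and 3 were higher and 5 lower with Z22. The NF-κB list gave 8 rises and 2 falls among 21, with the prostaglandin synthase Ptgs2 at 7403 and 54441 counts, Traf1 at 1.23 and 11 CPM, Tnfaip3 at 8.70 and 32.6 and Nfkb2 at 39.1 and 141, and none of the 21 was 2-fold higher and 3 were lower with J2, and of 20 with Z22 2 were higher and 2 lower.

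Of 31 measured NRF2 targets, the antioxidant genes, 15 rose, 16 stayed within 2-fold and none fell (median 1.0). Hmox1, the heme oxygenase, rose from 898 to 21051 counts (4.49, ratio 22.6, interval 21.2 to 24.2). Srxn1, which repairs oxidized peroxiredoxins, rose from 97.8 to 490 CPM and Blvrb, a biliverdin reductase, from 10.6 to 88.3. Gsta4, a glutathione transferase, had 0 and 62 counts, at least 20-fold higher against a floor of 3 counts. It reached 1 CPM on average only through the ADAR1i-124 library. The metal-binding Mt1 (18.3 to 170 CPM) and the ferritin light chain Ftl1 (570 to 1637), and the quinone reductase Nqo1 (41.8 to 97.3) rose as well, and the autophagy receptor Sqstm1 went from 708 to 2312.

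In the J2 pair Srxn1 went from 63.9 to 170 CPM and in the Z22 pair from 34.1 to 136, 2-fold or more above the median gene in both. Hmox1 stood at 45.6 and 62.7 CPM with J2 and at 56.1 and 114 with Z22, a change of 0.45 and 0.18 relative to the median gene. The size of its rise in total RNA was thus not seen in the precipitated RNA. Of 29 NRF2 targets measured in the Z22 pair 9 were 2-fold higher and 1 lower, and in the J2 pair 1 and 2, against 17.1% and 17% of all genes with Z22 and 7.31% and 10.3% with J2.

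YAP and TGF-β targets gave 9 rises and 1 fall among 27. Ccn2, a secreted matricellular protein, rose from 106 to 467 CPM, Thbs1, which encodes thrombospondin, from 139 to 483, and Pmepa1, a feedback gene of TGF-β signalling, from 5.82 to 100. Of the 27 genes 4 were 2-fold higher and 4 lower with J2 (median 0.0), and 1 higher and 6 lower with Z22. Inhba, an activin subunit, rose in total RNA (2.94 to 11.4 CPM) and was lower with J2 (9.11 and 1.25). With J2, Ccn2 (35.3 to 122 CPM) and Pmepa1 (3.04 to 7.02) were also 2-fold or more above the median gene, and with Z22 the values were 82.2 and 88.5 for Ccn2 and 5.61 and 6.48 for Pmepa1. A list of contractile and actin-linked genes, drawn up after these values were seen, had 9 rises and no fall among 25. Acta2, the smooth muscle actin, went from 499 to 6800 counts (29.3 to 386 CPM), from 18.1 to 68.6 CPM with J2 and from 30.9 to 97.0 with Z22, and it stood at 3.41 CPM after 5-Aza-CdR. Of the whole list 5 of 23 genes were 2-fold higher with J2 and 11 of 24 were 2-fold lower with Z22, against 7.31% and 17% of all genes. Cnn1, a calponin, had 0 and 85 counts, at least 27.4-fold higher, and reached 1 CPM on average only through the ADAR1i-124 library. Of the 22 contractile genes with a listed promoter 22.7% held the CArG box, the site of SRF, against 1.60% of all genes above 1 CPM. The motif GGAATG of TEAD factors was found in 45.5% against 14.3%. The CArG box, like the list, was chosen after seeing the data. Both shares cover the whole list and do not describe the genes that rose.

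Genes of the cornified envelope, the protein shell of skin cells, were mostly not measured, since 93 of 102 stayed below 1 CPM. Of the other 9, several passed that minimum only through the ADAR1i-124 library, so that their count is not a result, and with no minimum the median of the list was 0.20 in place of 1.77. Lce1g had 12 and 1388 counts (6.04) and Lce1h 4 and 150, while Sprr2h had 0 and 49, at least 15.8-fold higher. Lce1g rose in the J2 pair, from 0.246 to 4.65 CPM, and had 0 counts with DMSO and 7.09 CPM with ADAR1i-124 in the Z22 pair. Prl2c2, a proliferin gene of a family of close copies, had 169 and 3488 counts in total RNA, with 19 and 12.5 CPM in the J2 pair and 0.115 and 18.4 in the Z22 pair.

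Replication-dependent histone genes gave 27 rises and 2 falls among 56 (median 0.99). Hist1h4a went from 21 to 428 counts, Hist2h3b from 35 to 433, Hist2h2ac from 38 to 401 and Hist1h4k from 56 to 548, and Hist2h2bb fell from 432 to 34. Their transcripts end in a stem-loop in place of a poly(A) tail and are made in S phase. Of 53 measured in the J2 pair 25 were 2-fold higher and 1 lower, and of 51 in the Z22 pair 30 and 0, where 7.31% and 17.1% of all genes were higher. Their median GC content was 56.1%, and with the GC median subtracted 24 rose, 5 fell and the median was 0.55.

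Other proliferation genes did not move with them in total RNA. Of 50 genes of G1/S and replication 2 rose and 3 fell, and of 47 of G2/M and mitosis none rose and 1, the securin Pttg1, fell (19.5 to 7.66 CPM). In the precipitated pairs 43 of 47 mitosis genes were at least 2-fold above the median gene with J2 and 15 with Z22, and of 50 G1/S genes 39 and 30. Ttk, a spindle checkpoint kinase, stood at 60.4 and 31.0 CPM in total RNA and at 9.60 and 48.5 with J2. No proteasome subunit of 33 and none of 34 SR and hnRNP proteins passed 2-fold in total RNA. Of 317 zinc finger genes 18 rose and 7 fell, shares below those of all genes.

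The ATF4 list gave 5 rises and 5 falls among 40, with Atf3 (8.64 to 38.6 CPM) and Cebpb (6.52 to 28) higher and the aminotransferase Gpt2 (127 to 21.9), the lipoprotein receptor Vldlr (158 to 38.2) and the proline enzyme Pycr1 (16.2 to 4.43) lower. In the precipitated pairs 21 of 40 were 2-fold lower with J2 and 29 of 39 with Z22, and none was higher, so that Gpt2, Vldlr and Pycr1 kept their direction while Atf3 (-1.51 with J2 and -2.36 with Z22) and Cebpb (-1.3 and -2.23) did not. The 26 measured heat shock genes gave 4 rises, among them Bag3 (79.4 to 229 CPM) and Hspb8 (1.23 to 7.55), and 1 fall, Hspe1 (244 to 103). No endoplasmic reticulum chaperone of 26 rose, and Hsp90b1 fell from 1755 to 819. The 30 measured p53 targets gave 3 rises, of Plk3 (30.2 to 153 CPM), Ddb2 (4.11 to 14.9) and Plk2 (156 to 384), and 1 fall, of Sesn1 (21.2 to 5.96). These were 10% and 3.33% of the list, against 7.71% and 8.7% of all genes. With J2 10 of 30 were 2-fold lower and 1 higher, and with Z22 5 of 29 were lower and 5 higher. Among cell death genes 4 of 27 fell and none rose, among them Zbp1, Bmf (50 and 1 counts) and the gasdermin Gsdme (20.4 to 3.63 CPM).

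Genes that fell in total RNA mostly pointed the same way in the precipitated pairs, and genes that rose did not. The precipitated levels were not set against the library of the control antibody IgG. A change in them is therefore not shown to be a change in double-stranded or Z-form RNA. A change in a pair is given relative to the median gene, which changed by 0.01 with J2 and by 0.84 with Z22, whose DMSO library had 34.9% of its counts on the ribosomal RNA-like gene Gm42418. Of 262 genes at least 4-fold lower in total RNA and measured in the J2 pair, 90.8% lay below that median with J2, and of 250 with Z22 82.8% did, where 50% of all genes do by construction. Of 192 genes at least 4-fold higher, 41.7% lay above it with J2, and of 200 with Z22 39.0% did. At the 2-fold line the shares were 68.0% and 58.8% for genes that fell and 42.9% and 33.6% for those that rose. The Z22 shares depend on the centring. With plain CPM ratios 62.0% of the genes that rose and 34.6% of those that fell had the same sign.

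**Figure D3:**
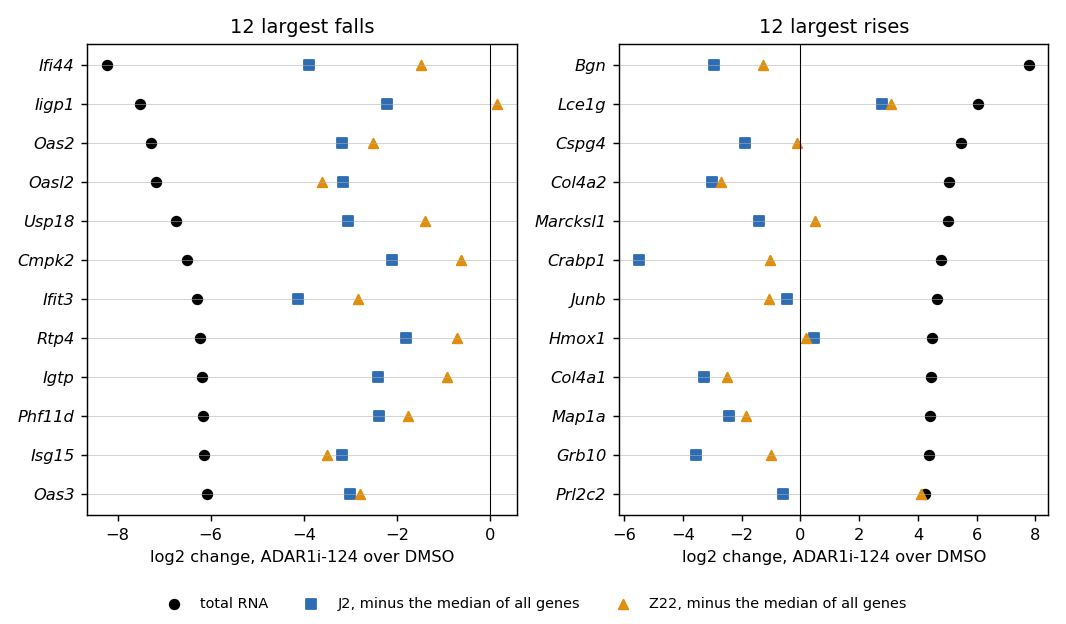
Log2 change, ADAR1i-124 over DMSO (x axis), of the 12 genes with the largest fall (left) and the 12 with the largest rise (right) in total RNA, with the J2 and Z22 values relative to the median gene of that pair. All 12 falls lie below 0 with J2 and 11 of 12 with Z22, whereas 8 of the 12 rises are 2-fold or more lower with J2.

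Changes of at least 2-fold in all 3 pairs were found for 215 of the 1191 genes that fell (18.1%) and for 34 of the 1056 that rose (3.22%). Of all 12344 genes measured in both precipitated pairs, 5.44% were 2-fold lower in both and 3.33% higher in both. The share among genes that rose was near that of all genes, though its base also holds genes not measured in those pairs. Of the 1056, 897 were measured with J2 and 885 with Z22. Of the 215, 54 belong to the interferon lists (25.1%), which hold 112 of all 13693 genes (0.818%), and Acss2 of the lipid lists is also among them. The lists do not hold every interferon-stimulated gene, so the 25.1% can understate the share of such genes. The 34 include Lce1g, Srxn1 and the histone genes Hist1h3g, Hist1h2bl, Hist1h2bn, Hist4h4 and Hist1h4j. Others, named after their values were seen, were the protease inhibitor Serpinb2 (3.42 in total RNA, 1.51 with J2 and 2.75 with Z22), the cytokine Il24 (3.56, 2.61 and 1.47), the T cell inhibitory receptor gene Havcr2 (3.02, 1.14 and 1.93), the BMP target Id1 (2.49, 2.28 and 2.51) and the stromelysin Mmp10 (1.84, 1.38 and 4.21).

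Base composition separated genes that rose from others. Among protein-coding genes ordered by the GC content of the transcript, 3.12% of the lowest of 10 equal groups and 26.3% of the highest rose, while 9.27% and 3.21% fell, and the median change went from -0.23 to 0.50. The median GC content of all 1056 genes that rose was 54.3%, that of the genes that fell 48.0% and that of all genes 49.0%. Across genes, which are not replicates, Spearman's coefficient of change and GC content was 0.25 in total RNA, -0.10 in the J2 pair and -0.43 in the Z22 pair. Of 321 single-exon coding genes 17.8% rose, and of the 270 left without the histones 11.5%, against 7.41% of 4764 genes of 11 exons or more. The median change of the single-exon genes was 0.16, and 0.09 without the histones. A gene ending within 10 kb upstream on the same strand was followed by 8.90% of genes higher and 6.85% lower, and 7.96% and 8.04% of the rest.

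**Figure D4:**
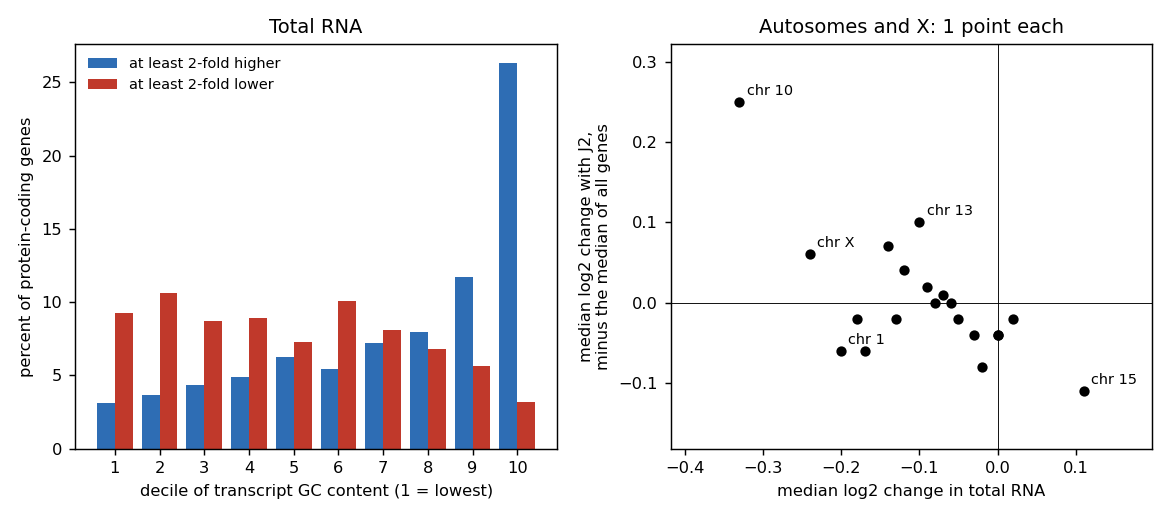
Left, percent of protein-coding genes at least 2-fold higher or lower in total RNA (y axis) in 10 equal groups of transcript GC content (x axis). Right, median log2 change of the genes of each autosome and of X in total RNA (x axis) and in the J2 pair relative to all genes (y axis). The share of genes that rose climbs to 26.3% in the highest group, and chromosome 10 lies lowest in total RNA (-0.33) and highest with J2 (0.25).

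Among autosomes, chromosome 10 had the lowest median. Of 651 genes on chromosome 10, 15.1% fell and 5.53% rose, with a median change of -0.33 in total RNA and of 0.25 with J2. Chromosome 15 had the highest autosomal median in total RNA, 0.11, and -0.11 with J2. The remaining autosomes had medians between -0.20 and 0.02 in total RNA, and X had -0.24. Of 21 mitochondrial genes 5 fell and none rose, with a median of 0.04. Sign and library order on chromosome 10 were thus opposite to those of the Y-linked genes in both pairs, and a link between them was not tested.

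The most abundant transcripts were of similar level, apart from one. Gm26917, a lincRNA locus with sequence of ribosomal RNA, held 1776 CPM with DMSO and 24505 with ADAR1i-124, that is 0.18% and 2.45% of the counts. The cytochrome oxidase gene mt-Co1 stood at 8633 and 10653 CPM, the nuclear RNA Malat1 at 9424 and 10581, Actb at 8051 and 10241 and Eef1a1 at 7731 and 5721. The nuclear RNA Pvt1, beside the Myc gene, fell from 670 to 170 CPM, and Neat1, which builds paraspeckles, was at 1007 and 1827.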

How the data were processed

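Ribosomal RNA-depleted total RNA libraries were sequenced, and the authors mapped the reads with STAR within snakePipes to the mouse genome (mm10). The counting tool and its strand setting are not given in the sources used here. The deposited table holds raw read counts per gene for 13 libraries, not normalized. For the precipitated pairs the RNA was treated with RNase I and precipitated with J2 or Z22.

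Counts were divided by the column sum (CPM) and compared as log2 after adding 0.5, for genes of at least 1 CPM on average. Intervals of ratios are exact (95%, conditional binomial). With 1 library per condition no test was made. Genes were annotated with the GENCODE mouse annotation of the same build, which matched 54495 of 54532 genes. GC content, length and exon number are those of the longest transcript of the gene's own class, a rule set after the longest transcript of any class was found to pick retained introns.

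The text names the 12 largest rises and falls among genes of at least 10 CPM on average, up to 5 moved members per list, the 5 highest genes, and genes said to be chosen later. Ifitm2, B2m, H2-D1, Ifnar1, Ifnar2, Jak1, the sensors within 2-fold, Rn7sk and the genes moved in all 3 pairs were also named after their values were seen. The members and the 46 lists were chosen with earlier results of these data known. The contractile and Y-linked lists, the sterol element, kappaB and CArG motifs and the GC correction were added after seeing the data. Promoters are RefSeq windows, and a gene with several counted as holding a motif if any did.

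Alternatives were other pseudocounts, a minimum of 5 CPM, and TMM (edgeR 4.0.16) and DESeq2 (1.42.0) scaling in R 4.3.3, used for scaling factors only. The calculations were tested on simulated data. The total RNA library of the combined treatment (1245894 counts) was not used. Some genes that the rule selects are not reported here.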

Additional observations from a re-analysis of the deposited data

Results flagged for a closer look

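Of the 12 largest rises in total RNA, 8 were 2-fold or more lower with ADAR1i-124 in the J2 pair. Relative to the median gene, the J2 change was -2.93 for Bgn, -1.88 for Cspg4, -3.02 for Col4a2, -1.42 for Marcksl1, -5.51 for Crabp1, -3.28 for Col4a1, -2.42 for Map1a and -3.57 for Grb10. The Y-linked genes had a median change of 3.59 in total RNA and of -3.52 with J2. Genes of chromosome 10 had a median of -0.33 in total RNA and of 0.25 with J2. Each item was picked out because the change had opposite signs in the total and J2 pairs. The differences between the pairs were not tested, since each condition had 1 library, and a check for a sample far from its group was not possible.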

How the results depend on the processing

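No paired analysis was possible because the labels give no replicate numbers and each condition had 1 library, and for the same reason no library could be left out. With a pseudocount of 2 CPM, 125 genes passed the 4-fold line upwards and 170 downwards, and 765 fell. With a minimum of 5 CPM, where fewer genes remain, 153 passed the 4-fold line upwards, 666 rose and 747 fell. The shares of the same sign with Z22 depended on the centring and crossed 50%. With plain CPM they were 62.0% and 34.6% for genes that rose and fell, and 61.5% and 60% at 4-fold. With TMM scaling and no centring they were 38.8% and 51.7% at 2-fold. With a minimum of 5 CPM in the pair 29.1% of the genes that rose kept their sign. With the median of genes of like GC content subtracted, an alternative chosen after seeing the data, the Z22 shares were 45.1% and 64.5% at 2-fold and 48.9% for genes at least 4-fold higher. At the 4-fold line 4.37% of the highest and 1.87% of the lowest of 10 GC groups were higher, 2.46% of chromosome 10 was lower, and 39.1% of the lower genes held the ISRE. With a minimum of 5 CPM the lowest GC group had 2.16% higher and chromosome 10 had 12.4% lower. Apart from the narrower choice of genes, the cause was not tested. The count in the leading direction stayed within 1.5 times for the lists compared. Small counts in the other direction moved more with GC content subtracted, such as histone falls (2 to 5) and NF-κB falls (2 to 0). Some list medians changed sign with a setting, namely those of collagens (0.09 with TMM), chemokines and cytokines (-0.36 to 0.06 with no minimum), melanocyte genes, heat shock, proteasome, SR proteins and hnRNPs, zinc finger, circadian, checkpoint and keratinocyte genes. The 12 largest rises and 12 largest falls kept their signs, but with a pseudocount of 2 CPM they were smaller, for example 6.58 for Bgn, 3.63 for Marcksl1, -6.82 for Ifi44 and -5.58 for Usp18, since these genes had few counts in 1 library.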
